A study of Homo sapiens with 6 samples.

Results

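The genes of iron storage, uptake, export and regulation were examined in DU145, an established human prostate cancer cell line. The 10 genes were taken from the 19727 rows of the deposited table by their symbols, and all 10 were found. By role they are the ferritin subunits FTH1 and FTL (storage), TFRC, STEAP3, SLC11A2 and SLC39A14 (uptake), SLC40A1 (export), and ACO1, IREB2 and FBXL5 (regulation). Cells made to overexpress the circular RNA circCSPP1 from a lentivirus (labeled OE) were set against cells given the control virus (labeled NC, genotype normal), 3 libraries to a group. Both groups went through lentiviral transfection and puromycin selection, each with its own vector, and the sources used here do not say whether the replicates of a group were separate cultures, so the p-values below measure the spread between these libraries, which may be technical. The libraries were made from poly(A) RNA, and each value is an FPKM, the count of fragments scaled to transcript length and library size, as computed by the authors.

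Cells take up iron bound to transferrin through the transferrin receptor, reduce it in the endosome and move it into the cytosol, where what is not used is stored inside the ferritin shell. The iron regulatory proteins bind a short RNA hairpin, the iron-responsive element (IRE), when the cytosol is poor in iron. Bound at the 5′ end of a ferritin or ferroportin mRNA they block its translation, and bound in the 3′ UTR of the transferrin receptor mRNA they protect it from decay. RNA-seq measures the mRNA and not the protein, so block or release of ferritin translation is not seen in these values.

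A search of the protein-coding transcripts of GENCODE release 29 (GRCh38, the same assembly as the hg38 of the submitters' processing notes) placed such a hairpin in 4 of the 10 genes. The search, on the transcript strand, asked for a C, 5 bases, the loop CAGTGN and 5 bases that can pair with the first 5, G with T included. The 7 matches are shown, with 5 bases on either side, because they mark which of these mRNAs hold this exact pattern. Capitals mark the loop. All are written 5′ to 3′ in the sense of the mRNA, with T for U.
FTH1 5′ UTR, chr11:61967575-61967601, minus strand: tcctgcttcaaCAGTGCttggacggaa
FTL 5′ UTR, chr19:48965336-48965362, plus strand: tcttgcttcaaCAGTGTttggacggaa
SLC40A1 5′ UTR, chr2:189580662-189580688, minus strand: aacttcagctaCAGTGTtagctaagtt
TFRC 3′ UTR, chr3:196050980-196051006, minus strand: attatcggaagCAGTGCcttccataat
TFRC 3′ UTR, chr3:196050576-196050602, minus strand: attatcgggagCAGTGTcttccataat
TFRC 3′ UTR, chr3:196050511-196050537, minus strand: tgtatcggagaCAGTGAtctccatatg
TFRC 3′ UTR, chr3:196050464-196050490, minus strand: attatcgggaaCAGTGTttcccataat
Over all genes of the table, 31 of 18688 with a 5′ UTR (0.166%) and 128 of 19015 with a 3′ UTR (0.673%) held a match. The FTH1 and FTL elements were identical at 25 of 27 bases and differed by C3T and C17T, counted from 1 at the 5′ end of the printed run with the FTH1 base first. These letters were not found in the UTRs of the other 6 genes, which says nothing of hairpins with another stem or loop. The search therefore does not show that these 6, SLC11A2 among them, lack an IRE.

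Ferritin mRNA and the transporter SLC39A14 were higher in OE. Of the 10 genes, 9 averaged 1 FPKM or more over the libraries and were tested, and 3 rose and 0 fell at an adjusted p under 0.05. Over all 12322 genes tested, 4.69% rose and 6.66% fell, and 11.4% passed in either direction. At an unadjusted p under 0.05, 6 of the 9 differed, 5 of them higher, against 28.2% of all genes tested. Without moderation of the variance 1 of the 9 passed the adjusted threshold, against 6.77% of all genes. The median log2 fold change (OE minus NC, on the log2(FPKM + 1) scale) was 0.23 over the 9 genes and -0.03 over all genes tested. In 5 of the 9 the groups did not overlap, against 36.4% of all genes tested. In this design the smallest p of an exact two-sided permutation test is 0.10. The genes were chosen with earlier results of these data known. Their counts beside those of all genes are therefore a description and not a test of the set.

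**Figure D1:**
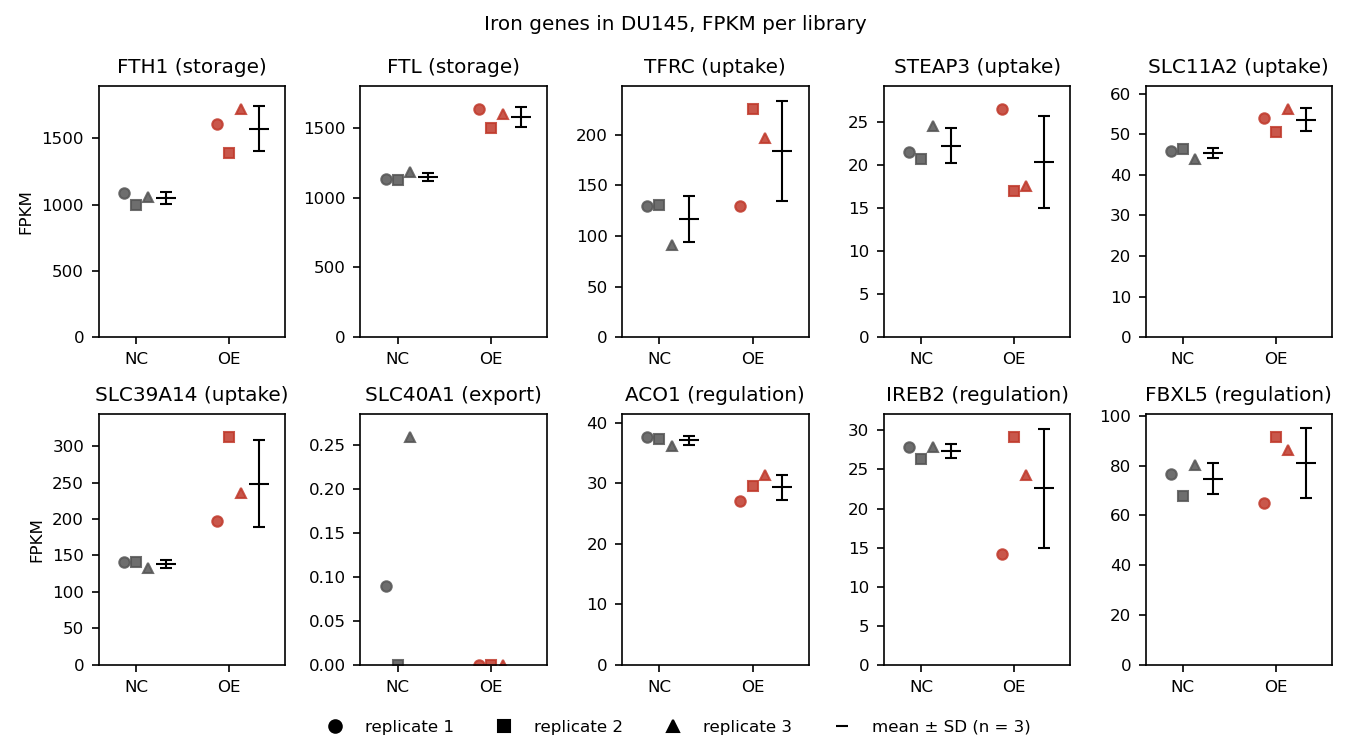
FPKM of each iron gene in each library, with NC in gray and OE in red, marker shapes for the replicate number and the mean ± SD (n = 3) beside each group except for SLC40A1, which is listed at 0 in some libraries. FTH1, FTL, SLC39A14 and SLC11A2 lay higher in all 3 OE libraries and ACO1 lower, while replicate 1 of OE stood apart from replicates 2 and 3 in TFRC, STEAP3, IREB2 and FBXL5.

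Storage came first in level. FTH1, the ferritin heavy subunit that oxidizes iron as it enters the shell, lies on chromosome 11 from 61959718 to 61967660 (minus strand). It measured 1086, 999 and 1058 FPKM in NC replicates 1, 2 and 3, and 1605, 1388 and 1723 FPKM in OE replicates 1, 2 and 3. The lowest OE library was above the highest NC library. The means were 1048 ± 44.5 and 1572 ± 170 FPKM (SD, n = 3), a 1.50-fold rise (log2 fold change 0.58 with a standard error of 0.090, limma adjusted p = 0.010). The adjusted p was 0.0504 without NC replicate 1, 0.063 without NC replicate 2 and 0.054 without moderation of the variance.

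FTL, the ferritin light subunit that favors formation of the iron core, lies on chromosome 19 from 48965301 to 48966878 (plus strand). It measured 1138, 1125 and 1186 FPKM in the NC libraries and 1639, 1500 and 1601 FPKM in the OE libraries. Here too the groups did not overlap, and the spread within each group was smaller than for FTH1. The means were 1150 ± 31.9 and 1580 ± 71.6 FPKM (SD, n = 3), a 1.37-fold rise (log2 fold change 0.46 with a standard error of 0.063, limma adjusted p = 0.0069). Leaving out NC replicate 1 or 2 gave an adjusted p of 0.053 and 0.054. FTL has a single transcript of 878 nt, on which these values correspond to 28546 to 46612 fragments per library, so counting error was small beside the spread between libraries.

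Both ferritin values are uncertain in one respect. GENCODE lists 25 pseudogenes named after FTH1 and 16 named after FTL, near-identical copies among which the authors' counting could have split fragments, and none of the other 8 genes has such a pseudogene. The ratio of FTL to FTH1 was 1.05, 1.13 and 1.12 in NC and 1.02, 1.08 and 0.929 in OE, so the groups overlapped. The difference in the log2 ratio was -0.12 (exact two-sided permutation test, p = 0.20). Together the 2 subunits took 0.352% to 0.372% of the summed FPKM of a NC library and 0.490% to 0.557% of a OE library (exact two-sided permutation test, p = 0.10, the smallest this design can give).

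Among the uptake genes, SLC39A14 had the highest log2 fold change. It encodes ZIP14, a membrane carrier of iron that is not bound to transferrin and of zinc and manganese, and lies on chromosome 8 from 22367249 to 22434129. It measured 141, 141 and 132 FPKM in NC and 197, 313 and 236 FPKM in OE. No OE library fell into the NC range, but they spread widely, with replicate 1 lowest and replicate 2 highest. The means were 138 ± 5.004 and 249 ± 59.1 FPKM (SD, n = 3), a 1.80-fold rise (log2 fold change 0.82 with a standard error of 0.16, limma adjusted p = 0.019). The call was lost, with the adjusted p in parentheses, without NC replicate 1 (0.075), 2 (0.084) or 3 (0.082), without OE replicate 3 (0.065), with no filter on low values (0.077) and without moderation of the variance (0.098).

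TFRC, the transferrin receptor, lies on chromosome 3 from 196027183 to 196082189 and carries 4 of the hairpins printed above. Its values were 129, 131 and 90.9 FPKM in NC and 130, 225 and 197 FPKM in OE. Replicate 1 of OE lay at the level of NC replicates 1 and 2, whereas replicates 2 and 3 lay above every NC library. The log2 fold change of 0.63 (standard error 0.22) did not pass the threshold (adjusted p = 0.12 from limma). Without OE replicate 1 it was 0.86 (adjusted p = 0.015), a setting in which 28.5% of all genes passed. Leaving out any other library gave 0.46 to 0.72, with limma adjusted p from 0.20 to 0.31.

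SLC11A2, or DMT1, which carries ferrous iron out of the endosome, lies on chromosome 12 from 50979401 to 51028566. It measured 45.8, 46.3 and 44.0 FPKM in NC and 54.1, 50.5 and 56.2 FPKM in OE. The groups did not overlap, but the log2 fold change of 0.23 (standard error 0.083) had an adjusted p of 0.11. STEAP3, the endosomal reductase that turns ferric into ferrous iron, lies on chromosome 2 from 119223831 to 119265652. It measured 21.6, 20.8 and 24.6 FPKM in NC and 26.6, 17.1 and 17.5 FPKM in OE. Replicate 1 of OE was the highest of the 6 libraries and replicates 2 and 3 were the lowest. The log2 fold change was -0.15 (adjusted p = 0.63), and without OE replicate 1 it was -0.34 (adjusted p = 0.033). In that setting 28.5% of all genes passed. Leaving out any other library gave -0.19 to -0.04, with limma adjusted p from 0.66 to 0.90.

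SLC40A1, or ferroportin, the known exporter of iron from the cell, was close to 0 in the table. The gene lies on chromosome 2 from 189560579 to 189583758. It was listed at 0.09, 0 and 0.26 FPKM in NC and at 0 in all 3 OE libraries. At the depth of these libraries, 3 fragments on its longest transcript of 3442 nt would give 0.024 to 0.030 FPKM. The gene was below the filter and was not tested, and no fold change is given against a group listed at 0.

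None of the 3 regulators passed the threshold in the main test with all libraries. ACO1, which encodes iron regulatory protein 1 when it lacks its iron-sulfur cluster and a cytosolic aconitase when it holds one, lies on chromosome 9 from 32384603 to 32454769. It measured 37.7, 37.4 and 36.2 FPKM in NC and 27.1, 29.6 and 31.3 FPKM in OE. All 3 OE libraries were below all 3 NC libraries. The means were 37.1 ± 0.802 and 29.3 ± 2.12 FPKM (SD, n = 3), and the log2 fold change of -0.33 (standard error 0.091) had an adjusted p of 0.057 from limma. Without OE replicate 1 it was -0.28 (adjusted p = 0.021), a setting in which 28.5% of all genes passed. Leaving out any other library gave -0.38 to -0.32, with limma adjusted p from 0.085 to 0.21. ACO1 passed under 4 of the 17 alternatives. Among these were quantile normalization (limma adjusted p = 0.047, with 11.4% of all genes passing) and no filter on low values (0.0495, with 5.89%). IREB2, iron regulatory protein 2 (chromosome 15, 78437431 to 78501456), measured 27.9, 26.4 and 27.9 FPKM in NC and 14.3, 29.2 and 24.3 FPKM in OE, so that its log2 fold change of -0.32 (adjusted p = 0.41) rested on OE replicate 1 and was -0.04 (adjusted p = 0.78) without it. FBXL5, the iron-sensing ubiquitin ligase subunit that directs IREB2 protein to degradation (chromosome 4, 15604539 to 15681679), measured 76.5, 67.9 and 80.1 FPKM in NC and 65.0, 91.7 and 86.4 FPKM in OE. Its groups overlapped, with a log2 fold change of 0.10 (adjusted p = 0.69).

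Per length, the order of the mean levels was the same in both groups. In NC it ran FTL, FTH1, SLC39A14, TFRC, FBXL5, SLC11A2, ACO1, IREB2, STEAP3 and SLC40A1, and no 2 neighbors overlapped. In OE, FTL overlapped FTH1, SLC39A14 overlapped TFRC, and IREB2 overlapped both ACO1 and STEAP3. By NC mean, FTL ranked 43 and FTH1 51 among all 19727 genes, and SLC39A14 ranked 689.

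The libraries differ in ways that touch these genes. Depth, read from the step between the low FPKM values of short genes with a single transcript, was 28900000 to 36500000 fragments, and the groups overlapped. The gene of the overexpressed circle, CSPP1, measured 9.11 to 10.1 FPKM in NC and 14.5 to 22.8 FPKM in OE, though a gene-level value does not separate the circle from the linear mRNA and poly(A) selection depletes circles. Of the cell type markers, KRT8, KRT18, EPCAM and CDH1 of epithelium summed to 1729 to 1801 FPKM in NC and to 715 to 854 FPKM in OE. Of 6 markers of luminal prostate, KLK3, KLK2, TMPRSS2 and FOLH1 were under 0.1 FPKM in every library, and the list summed to 16.8 to 18.4 and 16.6 to 19.2 FPKM. In the same order, the 6 fibroblast markers summed to 2.98 to 4.39 and 1.35 to 2.09 FPKM, the 3 endothelial markers to 0.28 to 0.62 and 0.16 to 0.56 FPKM, the 5 erythroid markers to 0.23 to 0.84 and 0.48 to 3.44 FPKM, and the 5 leukocyte markers to 47.2 to 52.8 and 37.1 to 52.9 FPKM with PTPRC and CD3E under 0.1 FPKM throughout. The fall of the epithelial sum moves with the groups, and its part in the iron results was not tested. In bulk RNA, fewer cells of a type and less RNA per cell cannot be told apart.

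Within OE, the libraries departed from each other with the GC content of the transcript. Over the 7663 genes that averaged 10 FPKM or more, the Spearman correlation of GC content with the departure of a library from the other 2 of its group was 0.81, -0.75 and -0.55 in OE replicates 1, 2 and 3, and -0.08 to 0.11 in NC. The iron genes departed by different amounts. IREB2 (38.3% GC), FBXL5 (40.5%) and TFRC (41.5%) departed in replicate 1 from the mean of replicates 2 and 3 by -0.86, -0.45 and -0.70 on the log2 scale, and STEAP3 (56.9%) by 0.59. SLC39A14 (47.4%) and ACO1 (45.7%) departed by -0.46 and -0.16. FTL lay close to STEAP3 in GC content (56.3%) but departed by 0.08, and FTH1 (50.1%) and SLC11A2 (43.0%) departed by 0.05 and 0.02. Across the 9 genes, which share these libraries, Pearson's r was 0.84 and Spearman's rho 0.85, given as a description.

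**Figure D2:**
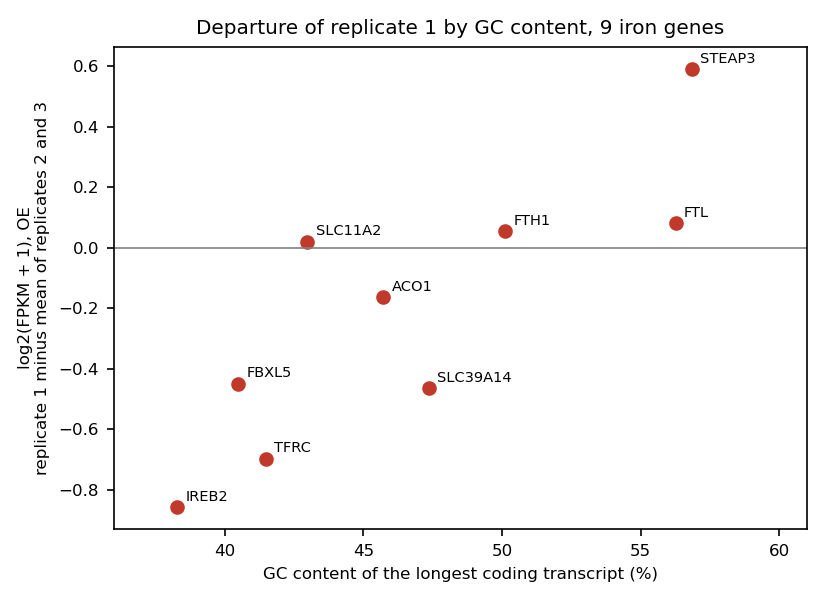
GC content of the longest coding transcript (x axis, percent) against the log2(FPKM + 1) of OE replicate 1 minus the mean of replicates 2 and 3 (y axis), with 1 point for each of the 9 tested iron genes. The points run from IREB2 at 38.3% and -0.86 to STEAP3 at 56.9% and 0.59, with FTH1, FTL and SLC11A2 close to 0.

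After a loess correction of each library for GC content and length, 5 of the 9 genes passed an adjusted p of 0.05, 4 higher and 1 lower, against 28.9% of all genes tested (12.3% higher and 16.6% lower). FTH1 (log2 fold change 0.56), FTL (0.41) and SLC39A14 (0.82) kept their calls, and TFRC (0.68, adjusted p = 0.019) and ACO1 (-0.31, adjusted p = 0.011) were added. The corrected values of TFRC were 128, 127 and 89.5 FPKM in NC and 159, 200 and 189 FPKM in OE, so that the groups no longer overlapped. IREB2 then lay at 27.5, 25.3 and 27.4 against 19.1, 24.7 and 23.1 FPKM (adjusted p = 0.098). Its groups did not overlap either after the correction, with a log2 fold change of -0.26. Without OE replicate 1, 6 of the 9 passed, the same 5 and STEAP3, 4 higher and 2 lower, against 28.5% of all genes (13.1% higher and 15.4% lower). The series' design text speaks of 3 pairs but does not say what the libraries of a pair share. With the replicate number as a block, FTH1, FTL and SLC39A14 passed and were higher, against 7.49% of all genes (2.95% higher and 4.54% lower). Of the other libraries, leaving out NC replicate 1 or 2 left 0 of the 9, where 2.38% and 2.52% of all genes passed. FTH1 and FTL remained without NC replicate 3 (3.28% of all genes) and without OE replicate 3 (3.73%), and all 3 calls remained without OE replicate 2 (9.43%).

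**Figure D3:**
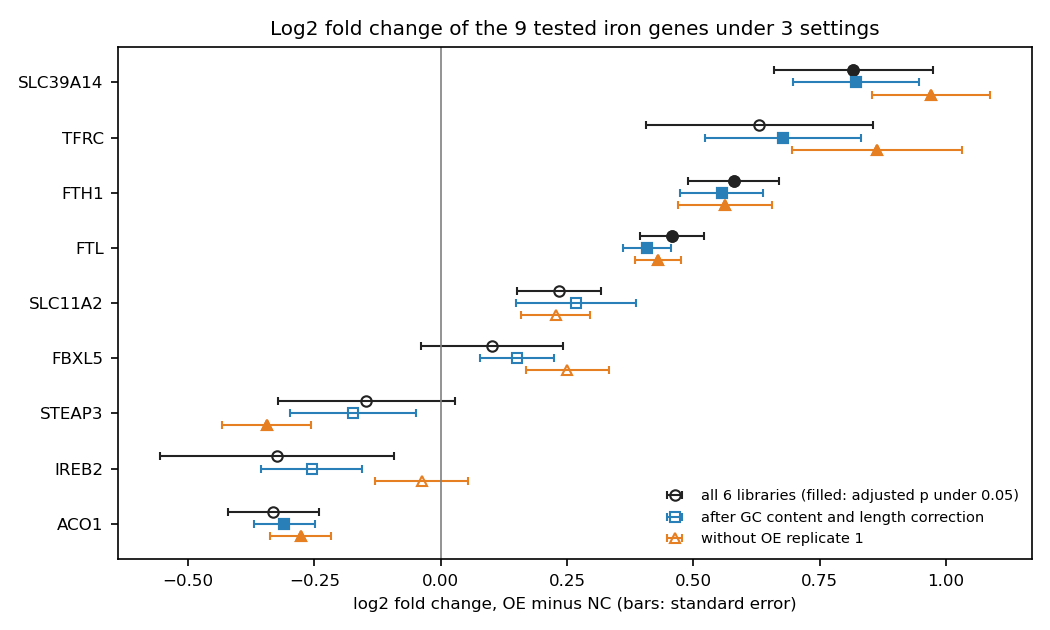
Log2 fold change of the 9 tested iron genes (x axis, with standard error bars) with all 6 libraries (black circles), after the GC content and length correction (blue squares) and without OE replicate 1 (orange triangles), filled where the adjusted p was under 0.05. FTH1, FTL and SLC39A14 are filled under all 3 settings, TFRC and ACO1 after the correction and without replicate 1, and IREB2 moves from -0.32 to -0.04 when replicate 1 is left out.

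The wider pathway was described through a list of 91 other iron genes, of which 79 were tested. Of these, 10 passed an adjusted p of 0.05 (12.7%, against 11.4% of all genes tested), 3 higher and 7 lower, and the median log2 fold change was -0.05, against -0.03 over all genes. Of the 10, TMPRSS6 reached the filter only through NC, and without it 9 of 78 passed (11.5%). The list as a whole was thus close to the background.

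Heme breakdown, which frees iron from heme, held the largest rise. HMOX1, the inducible heme oxygenase, measured 28.0, 28.7 and 30.2 FPKM in NC and 57.2, 50.8 and 51.4 FPKM in OE. The groups were far apart, with a 1.83-fold rise (log2 fold change 0.85 with a standard error of 0.089, limma adjusted p = 0.0032). BLVRA, which reduces the biliverdin that heme oxygenase makes, fell from 71.4 ± 0.442 to 50.0 ± 1.58 FPKM (SD, n = 3), with -0.51 as its log2 fold change (adjusted p = 0.0087). FLVCR2, a membrane transporter of the FLVCR family, fell from 4.47 ± 0.590 to 2.35 ± 0.336 FPKM (log2 fold change -0.71, adjusted p = 0.017). These were 3 of 17 tested genes of heme synthesis, transport and breakdown (17.6%, against 11.4% of all genes tested). The median of the 17 was -0.02.

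Of the 10 tested genes of the transferrin cycle and membrane uptake, 1 rose and 2 fell (30.0%, against 11.4% of all genes tested). Their median log2 fold change was -0.24. SLC39A8, or ZIP8, the closest relative of SLC39A14, measured 22.7, 22.5 and 19.2 FPKM in NC and 11.8, 14.7 and 14.6 FPKM in OE. It fell by 0.61 on the log2 scale (adjusted p = 0.024), opposite to SLC39A14. TFR2, the second transferrin receptor, fell from 2.80 ± 0.352 to 1.71 ± 0.117 FPKM (log2 fold change -0.48, adjusted p = 0.036, or 0.084 with the replicate block). LCN2, a secreted protein that binds iron-carrying siderophores, rose from 60.2 ± 5.15 to 92.0 ± 19.1 FPKM (log2 fold change 0.59, adjusted p = 0.045, or 0.065 with the replicate block).

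Of the 7 genes of this group that did not pass, HFE, whose protein associates with transferrin receptors, had a log2 fold change of -0.24, and it lay between -0.50 and -0.10 when 1 library was left out. STEAP1 was at 0.23 (adjusted p = 0.60), with 0.52 (adjusted p = 0.025) without OE replicate 1 and 0.0010 without OE replicate 2. STEAP2 was at -0.24, between -0.54 without NC replicate 3 and -0.06 without NC replicate 2. CYBRD1, a surface ferrireductase at -0.38 (adjusted p = 0.68, or 0.20 with the replicate block), measured 9.14, 24.3 and 8.23 FPKM in NC and 5.03, 19.3 and 7.77 FPKM in OE. It was thus highest in replicate 2 of both groups. TF, the gene of transferrin itself, was between 0 and 0.23 FPKM, and STEAP4 was between 0.13 and 0.64 FPKM.

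Among 12 regulators and transcripts known for hairpins, 1 rose and 2 fell, with a median of -0.01. Thus 3 of the 12 passed, against 11.4% of all genes tested (4.69% higher and 6.66% lower). EPAS1, the hypoxia-inducible factor 2α whose mRNA is known to carry an IRE, measured 54.1, 52.5 and 49.7 FPKM in NC and 33.3, 29.8 and 31.3 FPKM in OE. It fell by 0.71 on the log2 scale (standard error 0.087, adjusted p = 0.0049). HIF1A, its relative, fell from 134 ± 2.08 to 87.1 ± 14.0 FPKM (log2 fold change -0.62, adjusted p = 0.021). ZFP36L2, an RNA-binding protein of the tristetraprolin family, rose from 9.38 ± 0.378 to 12.7 ± 0.618 FPKM (log2 fold change 0.40, adjusted p = 0.042, or 0.11 with the replicate block).

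Ferritin's handling partners did not pass. NCOA4, the receptor that carries ferritin to the autophagosome, measured 80.1, 78.8 and 82.0 FPKM in NC and 68.1, 86.7 and 88.1 FPKM in OE, and its log2 fold change of 0.0031 (adjusted p = 0.99) turned sign under 4 of the 17 alternative settings. PCBP1 and PCBP2, the chaperones that load iron into ferritin, had log2 fold changes of 0.14 (adjusted p = 0.41) and 0.23 (adjusted p = 0.11). In this group 0 of 7 passed with limma and 0 without moderation (6.77% of all genes), and 1 had an unadjusted p under 0.05 (28.2% of all genes).

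In the mitochondrial iron and iron-sulfur cluster group, 0 of 31 passed with limma, where 11.4% of all genes did. Without moderation 1 passed (6.77% of all genes), and 1 had an unadjusted p under 0.05 (28.2% of all genes). SLC25A37 and SLC25A28, the mitoferrins that import iron into mitochondria, had log2 fold changes of 0.12 (adjusted p = 0.37) and 0.11 (adjusted p = 0.82, negative without NC replicate 2). Of the 9 genes of export and systemic control, 7 were below the filter, among them HAMP (hepcidin, 0 to 0.20 FPKM), CP (ceruloplasmin, 0 to 0.11 FPKM) and HEPH (hephaestin, listed at 0 throughout). TMPRSS6, a protease that restrains hepcidin in liver, measured 1.42, 1.48 and 1.14 FPKM in NC and 0.82, 0.58 and 0.59 FPKM in OE. It reached a mean of 1 FPKM through NC alone, so its test is not read as a result.

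HMOX1 and EPAS1 passed an adjusted p of 0.05 under all 17 alternatives. Leaving out any 1 of the NC libraries left these 2 of the 10 calls (2.56% of 78 tested, against 2.38% to 3.28% of all genes), with TMPRSS6 then below the filter and the other 7 above the threshold p. Without OE replicate 3, 4 of 79 passed (5.06%, against 3.73% of all genes), and without OE replicate 1, 23 of 79 (29.1%, against 28.5%).

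**Figure D4:**
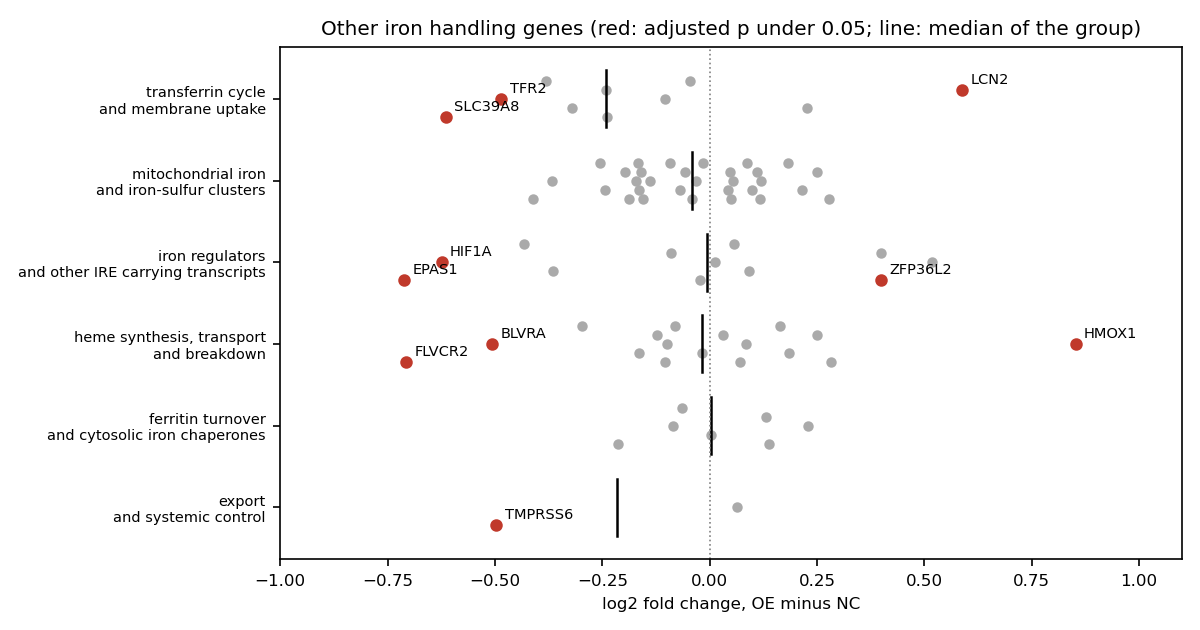
Log2 fold change (x axis) of the 79 tested genes of the wider iron list by group (y axis), with 1 point per gene, red and named where the adjusted p was under 0.05, and a black line at the group's median. HMOX1 at 0.85 is the highest point and EPAS1 at -0.71 the lowest, and the mitochondrial group holds no red point.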

How the data were processed

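Per the labels, poly(A) RNA was sequenced in paired ends, and the authors deposited FPKM values, rounded to 2 decimals; the submitters' processing notes list hg38, and the aligner, counter and annotation are not given in the sources used here. Columns were matched to samples by group and replicate number, and 0 columns of values were left unused. No count test was run, since FPKM are not counts. Values were taken to log2(FPKM + 1), on which fold changes of low genes are understated, and the 12322 genes averaging 1 FPKM or more were fitted together with limma 3.58.1 in R 4.3.3 (group as the one term, trended eBayes, two-sided p, Benjamini-Hochberg over all genes). The fit was tested on simulated data that gave both groups the spread of each gene in NC. The departures with GC content within OE were not simulated, so that test does not cover them. Coordinates, lengths, GC content and hairpins came from GENCODE 29, which may not be the authors' annotation; the longest coding transcript stood for a gene. Depth came from genes with 1 transcript under 800 nt (91.9% to 98.8% of 73 to 89 values per library lay within 0.15 of a whole fragment). The members and lists were chosen with earlier results of these data known. All 10 members, 17 listed partners and the list genes past an adjusted p of 0.05 (up to 12) were named. Alternatives were other pseudocounts, filters, scalings and variance models, the replicate block, a GC content and length correction, and leaving out each library.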

Additional observations from a re-analysis of the deposited data

How the results depend on the processing

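Of the 9 tested iron genes, 3 passed with all libraries, against 11.4% of all genes. Without moderation of the variance 1 (FTL) passed, against 6.77%. After the GC content and length correction 5 passed, against 28.9%. Between 0 and 6 passed when 1 library was left out. It was 0 without NC replicate 1 or 2 (2.38% and 2.52% of all genes) and 6 without OE replicate 1 (28.5%). None of the 9 changed direction under the 17 alternatives. Of the wider list, 10 genes passed with all libraries (12.7%, against 11.4% of all genes) and 5 without moderation (6.33%, against 6.77%). After the correction 18 passed (22.8%, against 28.9%), and 2 to 23 when 1 library was left out (2.56% to 29.1%, against 2.38% to 28.5%). With the replicate number as a block, 6 of the list passed (7.59%; TFR2, TMPRSS6, ZFP36L2 and LCN2 lost their calls), and the 3 ferritin and SLC39A14 calls held, against 7.49% of all genes. Same-numbered libraries deviated together by r = 0.073, 0.0065 and 0.057 over genes. NC replicates 1 and 3 correlated best with the OE library of the same number, and NC replicate 2 with OE replicate 3 (0.0090). Correlations this small cannot decide whether the numbers are the 3 pairs that the design text names. The main test was unpaired, and the replicate block is given beside it. The FTL to FTH1 log2 ratio lay between -0.17 and -0.06 when 1 library was left out. The sign turned for NCOA4 (log2 fold change -0.035 under quantile normalization, -0.062 to 0.122 when 1 library was left out), CYBRD1 (-0.875 to 0.083) and SLC25A28 (-0.095 to 0.405), all far from the threshold. The cause of these changes was not tested.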
